A study of Mus musculus with 27 samples.

Results

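Slc45a3, Sgk1, H6pd and Pdk4 are 4 genes that the study named for glucose metabolism in late gestation, and they were followed here through all 9 groups of the zone-resolved liver transcriptome. They were found by gene symbol, 4 of the 21823 genes in the expression table, and the study picked them out on whole livers of other mice. They were taken up here with earlier results of these libraries known. Each group held 3 libraries and combined 1 of 3 stages with 1 of 3 zones of the liver lobule. The stages were non-pregnant (NP), 8 days post coitum (dpc8) and 16 days post coitum (dpc16), and all mice were wild-type females, of strain C57BL/6 in the labels and C57BL/6N in the study's methods, with no treatment, transgene or Cre named in the labels. Zone 1 lies around the portal vein, zone 3 around the central vein and zone 2 between them, and each was cut from frozen sections by laser microdissection. The labels do not say whether the 3 zones of one replicate number came from the same mouse.

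The 4 genes act at different points of carbohydrate use. Slc45a3 encodes a proton-coupled sugar transporter, and Sgk1 a serine/threonine kinase that is induced by glucocorticoids and by osmotic stress and is activated downstream of PI3 kinase. H6pd oxidises glucose 6-phosphate inside the endoplasmic reticulum (ER) and so makes the NADPH with which 11β-hydroxysteroid dehydrogenase 1, the product of Hsd11b1, regenerates active glucocorticoid. Pdk4 is a kinase that phosphorylates and inactivates pyruvate dehydrogenase, which keeps pyruvate away from oxidation, and it is known as a fasting gene under the control of PPARA and FOXO factors and of glucocorticoids.

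On GRCm38, H6pd (ENSMUSG00000028980.14) spans chr4:149979475-150009023 on the minus strand and Pdk4 (ENSMUSG00000019577.6) spans chr6:5483351-5496309 on the minus strand. Sgk1 (ENSMUSG00000019970.15) spans chr10:21882184-21999903 on the plus strand, and Slc45a3 (ENSMUSG00000026435.15) spans chr1:131962967-131982969 on the plus strand. The values count whole genes and cannot tell one start site from another. Promoters are shown because 3 of the 4 genes are known glucocorticoid or fasting targets or act on glucocorticoid. All 4 genes matched RefSeq promoter windows (GRCm38.p6), with 10 start sites between them, and the 250 bases before 5 of these starts read as follows, with capitals for the motifs searched.
H6pd (chr4:150003237-150003486, minus strand): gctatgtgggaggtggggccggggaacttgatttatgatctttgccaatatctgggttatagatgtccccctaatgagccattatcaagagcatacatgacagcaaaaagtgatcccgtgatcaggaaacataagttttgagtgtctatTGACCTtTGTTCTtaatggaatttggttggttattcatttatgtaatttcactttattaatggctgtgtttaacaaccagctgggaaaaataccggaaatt
Sgk1, the fifth of its listed starts (chr10:21993640-21993889, plus strand): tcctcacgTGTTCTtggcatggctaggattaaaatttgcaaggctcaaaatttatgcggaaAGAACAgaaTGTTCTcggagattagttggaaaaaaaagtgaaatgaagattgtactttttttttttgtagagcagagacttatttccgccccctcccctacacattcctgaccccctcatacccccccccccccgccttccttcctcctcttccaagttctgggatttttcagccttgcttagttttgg
Sgk1, the most 3′ of its listed starts (chr10:21994416-21994665, plus strand): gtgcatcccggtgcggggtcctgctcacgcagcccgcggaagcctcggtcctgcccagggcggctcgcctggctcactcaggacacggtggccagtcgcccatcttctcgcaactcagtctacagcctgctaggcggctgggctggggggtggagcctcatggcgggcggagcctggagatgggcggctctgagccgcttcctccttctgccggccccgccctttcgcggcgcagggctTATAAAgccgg
Pdk4 (chr6:5496279-5496528, minus strand): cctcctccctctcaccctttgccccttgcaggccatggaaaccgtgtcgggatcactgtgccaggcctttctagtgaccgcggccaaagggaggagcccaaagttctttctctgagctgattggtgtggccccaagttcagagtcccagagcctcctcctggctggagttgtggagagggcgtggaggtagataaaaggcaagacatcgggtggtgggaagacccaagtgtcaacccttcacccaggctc
Slc45a3, the most 5′ of its listed starts (chr1:131962665-131962914, plus strand): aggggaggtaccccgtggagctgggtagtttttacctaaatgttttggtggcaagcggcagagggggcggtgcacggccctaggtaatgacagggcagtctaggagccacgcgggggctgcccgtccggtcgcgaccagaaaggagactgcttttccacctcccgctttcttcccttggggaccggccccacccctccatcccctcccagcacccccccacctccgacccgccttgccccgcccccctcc
The motifs were AGAACA, a glucocorticoid receptor half-site, GTAAACA, a forkhead motif, and AGGTCA, a nuclear receptor half-site, each on both strands, and TATAAA on the given strand. The H6pd start lies 5787 bases and the 2 Sgk1 starts shown lie 111706 and 112482 bases inside the gene spans given above, downstream of their annotated 5′ ends. The H6pd window held a nuclear receptor half-site and a glucocorticoid receptor half-site 1 base apart, and the Pdk4 window and the Slc45a3 window shown held none of the 4 motifs. The window before the other Slc45a3 start, not printed here, held TATAAA and AGGTCA, and 8 of the 10 windows, 6 of them of Sgk1, held at least 1 of the motifs, against 34.5% of all windows. In the window before the fifth Sgk1 start, which lies 776 bases upstream of the most 3′ one, 2 of the 3 glucocorticoid half-sites formed the palindrome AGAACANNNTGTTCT. Of all 32851 RefSeq windows of that length, 3 held this palindrome, 16.1% held AGAACA, 14.0% AGGTCA, 7.59% TATAAA and 3.17% GTAAACA. The palindrome was searched for after the window had been seen. A match is a description of letters only.

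Values are FPKM, read counts that the authors scaled to transcript length and to the mapped reads of the library, so that levels can be set side by side between genes. The estimated depth was 7.54 to 33.3 M reads, and the smallest value of any of the 4 genes, 0.518 FPKM for Pdk4, corresponded to about 36 reads. The zone labels matched known zonation, since 12 of 13 periportal markers were higher and 13 of 13 pericentral markers lower in zone 1 than in zone 3, averaged over stages. In 6 libraries labelled female, the Y-linked genes Ddx3y, Eif2s3y, Kdm5d and Uty summed to 7.92 to 23.2 FPKM, against at most 2.97 in the other 21. In zone 1 these were replicate 1 of NP and of dpc8, in zone 2 replicate 2 of dpc8 and replicate 3 of dpc16, and in zone 3 replicate 2 of NP and replicate 3 of dpc16. They also had the highest means of 15 connective tissue and smooth muscle genes, 4.17 to 5.62 on the log2(FPKM + 1) scale against 1.16 to 3.45 elsewhere, and are called the Y libraries below. In such bulk samples fewer cells of a type and less RNA per cell cannot be told apart.

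**Figure D1:**
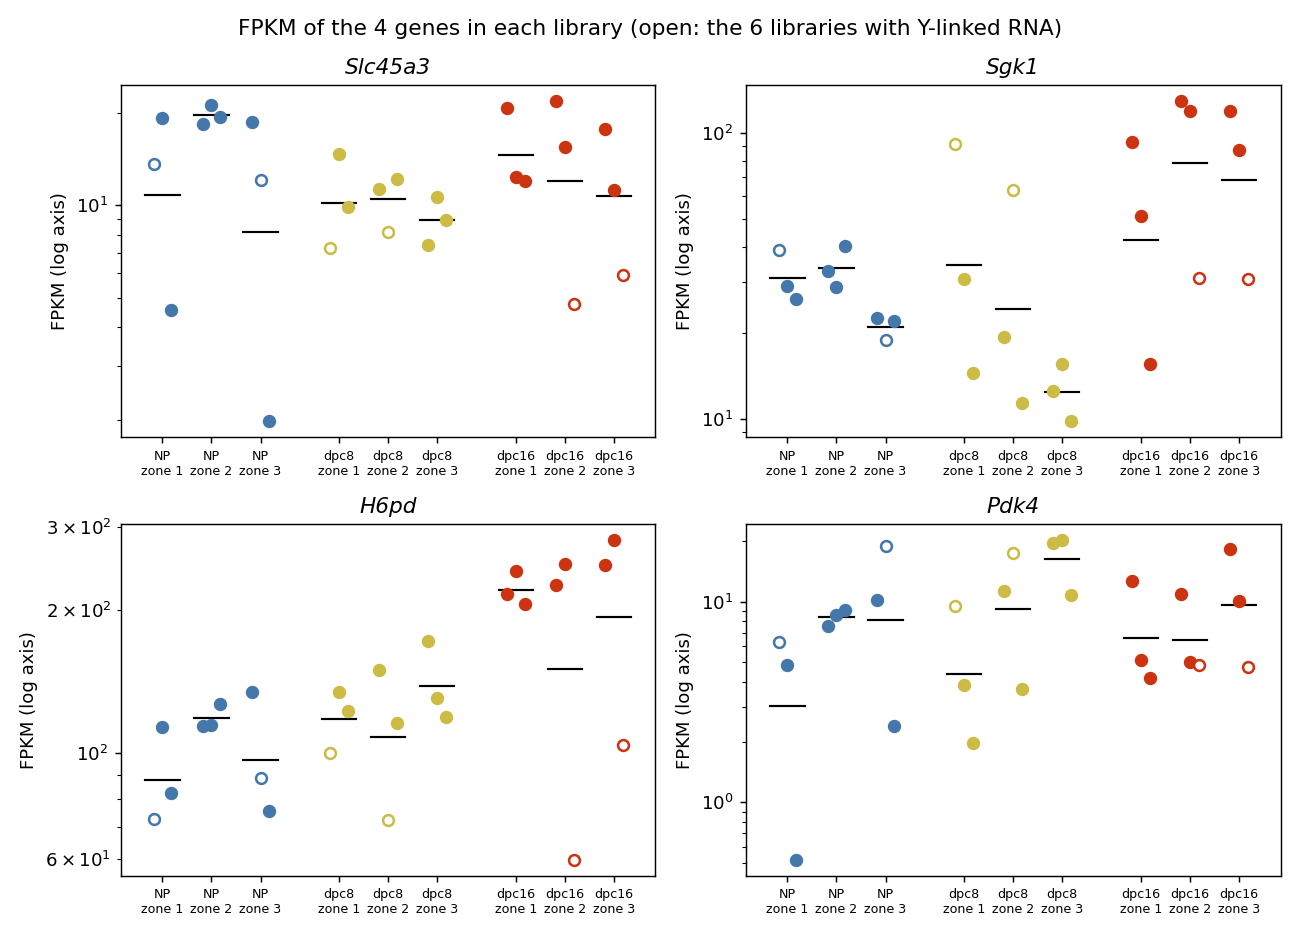
FPKM (log axis) of Slc45a3, Sgk1, H6pd and Pdk4 in each of 27 libraries by stage and zone, with a bar at the mean of the 3 libraries taken on the log2(FPKM + 1) scale and open symbols for the 6 Y libraries. H6pd at dpc16 lies above 200 FPKM in every library but the 2 open ones, and Sgk1 at dpc16 spreads from 15.6 to 129.

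H6pd was higher at dpc16. In zone 1 its FPKM was 72.8, 114 and 82.4 in NP, 99.9, 134 and 122 at dpc8, and 216, 242 and 206 at dpc16. All 3 dpc16 libraries of zone 1 lay above all 6 of the other stages, as did those of 5.81% of all genes tested. In the fit, 1.37% of all genes were called in zone 1 between dpc16 and NP and 2.01% between dpc16 and dpc8, and H6pd was not among them. In zone 2 the values were 114, 115 and 127 in NP, 149, 72.4 and 116 at dpc8, and 226, 251 and 59.7 at dpc16. In zone 3 they were 135, 88.5 and 75.5 in NP, 172, 131 and 119 at dpc8, and 249, 282 and 104 at dpc16. In zones 2 and 3 the first and second dpc16 libraries lay above every NP and dpc8 library, while the replicate 3 library, a Y library in both zones, lay among or below them.

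Averaged over the 3 zones, H6pd rose from NP to dpc16 by a log2 difference of 0.89 ± 0.24 (SE), a fold of 1.85 with a 95% interval of the log2 difference from 0.38 to 1.39 (adjusted p = 0.0185, limma over all genes). It was the only one of the 4 genes past the threshold in that comparison, in which 11.8% of the 12952 genes tested were called and 5.65% were called higher and 6.15% lower. Scaling moved the background: with each library rescaled to a common FPKM sum, the median of all genes shifted from -0.010 to -0.33, calls went from 732 higher and 797 lower to 268 higher and 2981 lower, and H6pd stayed higher by 0.50 (adjusted p = 0.0437). Same-numbered libraries of different zones deviated together at dpc16, so that the pooled p can be too small; with stage and replicate number as a random block the adjusted p was 0.0595 and the call was lost. Without the Y libraries, 7 dpc16 libraries (206 to 282 FPKM) lay above 7 NP libraries (75.5 to 135) and above 7 dpc8 libraries (116 to 172), as in 1.89% of all genes, and the log2 difference from NP was 1.19 (adjusted p = 1.2e-05), in a fit that called 16.6% of all genes.

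By zone, the log2 difference of H6pd between dpc16 and NP was 1.32 in zone 1 (adjusted p = 0.151), 0.34 in zone 2 (0.744) and 0.999 in zone 3 (0.333), each with an SE of 0.42. None of these passed in the full fit, where 1.37%, 2.66% and 1.32% of all genes were called in zones 1, 2 and 3. Without the Y libraries the 3 differences were 1.182, 1.001 and 1.38, and each passed (adjusted p = 0.00675, 0.0162 and 0.0041), while the share of all genes called rose to 2.92%, 4.45% and 3.61%. In each zone this left fewer than 3 libraries in at least 1 of the groups compared. The dpc16 libraries left out, at 59.7 and 104 FPKM, held the lowest H6pd values of that stage. The change did not differ detectably between zones, with a difference of 0.98 between zones 1 and 2 and a 95% interval from -0.26 to 2.21 (adjusted p = 0.782). At dpc8 H6pd differed from NP by 0.27, with an interval from -0.23 to 0.77 (adjusted p = 1), in a comparison that called 0.108% of all genes. From dpc8 to dpc16 the difference was 0.62 (adjusted p = 0.111), and 0.85 without the Y libraries (adjusted p = 0.000318), where 11.1% and 18.7% of all genes were called. These comparisons between stages share libraries.

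H6pd varied together with measures of library make-up that also differed between stages. Its log2 values had a correlation over the 27 libraries of 0.79 with the mean of the hepatocyte markers, of -0.65 with the connective tissue list and of 0.83 with the FPKM sum, across points that share libraries and scaling. The FPKM sum was 834568 to 988500 in the 7 dpc16 libraries that are not Y libraries. It was at most 704327 in NP and 650820 at dpc8, so stage and make-up cannot be told apart in these correlations. The summed level of 7 hepatocyte markers ranged from 32877 to 98548 FPKM in NP and from 46973 to 225588 at dpc16. At dpc8 it ranged from 34849 to 67467 FPKM. Most of this sum was 1 marker, Alb, at 22396 to 203747 FPKM over the 27 libraries. The mean log2 level of the 7 markers was 10.99 in NP, 10.60 at dpc8 and 11.40 at dpc16. With the connective tissue mean as a covariate the H6pd difference from NP was 0.76 (adjusted p = 0.0032), and with the hepatocyte marker mean, a covariate chosen after the data had been seen, it was 0.53 (adjusted p = 0.0054). Under the hepatocyte covariate the dpc16 to dpc8 difference turned to -0.085 (adjusted p = 0.717) and that of dpc8 from NP became 0.61 (adjusted p = 0.0177, with 2.78% of all genes called), so the stages between which H6pd differed depended on that covariate.

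**Figure D2:**
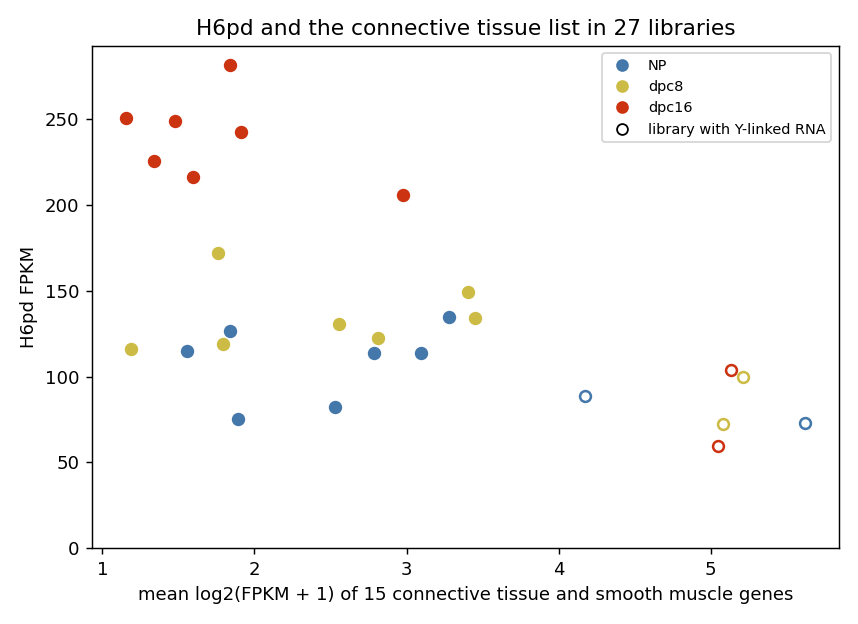
H6pd FPKM (vertical axis, from 0) against the mean log2(FPKM + 1) of 15 connective tissue and smooth muscle genes in each of 27 libraries, coloured by stage, with open symbols for the Y libraries. The 7 filled dpc16 points, at 206 to 282 FPKM, lie above all filled NP and dpc8 points, and the 2 open dpc16 points lie at 59.7 and 104.

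Among 13 tested genes of glucose 6-phosphate oxidation and the ER pool, 1 was called between dpc16 and NP, a share no higher than the 11.8% of all genes. It was Hsd11b1, the partner enzyme that uses the NADPH made by H6pd. Hsd11b1 rose from NP to dpc16 by 1.02 ± 0.25 (adjusted p = 0.00753), from a median of 358 FPKM (235 to 635) in NP to 868 FPKM (274 to 1488) at dpc16. Its dpc16 values overlapped those of NP, with 6 of 9 libraries above every NP library, and it stayed past the threshold under each of 5 other settings, at 0.63 to 1.21. The median of the list was -0.060, against -0.010 over all genes. G6pdx, the cytosolic glucose 6-phosphate dehydrogenase, had a median of 2.98 FPKM against 122 for H6pd and lay below it in 27 of 27 libraries. G6pdx followed the Y libraries, with 5.00 to 28.4 FPKM in these 6 against 0.822 to 5.04 in the others, and its dpc16 difference from NP was -0.098 (adjusted p = 0.935). G6pd2 was at most 0.0204 FPKM.

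Sgk1 was higher at dpc16 than at dpc8, and it varied widely between libraries of one group at dpc16 and in zones 1 and 2 at dpc8. In zone 1 its FPKM was 39.1, 29.2 and 26.3 in NP, 91.3, 30.7 and 14.4 at dpc8, and 93.2, 51.3 and 15.6 at dpc16. In zone 2 it was 33.0, 28.8 and 40.2 in NP, 19.4, 62.9 and 11.4 at dpc8, and 129, 119 and 31.0 at dpc16. In zone 3 it was 22.5, 18.8 and 21.96 in NP, 12.6, 15.5 and 9.83 at dpc8, and 119, 87.0 and 30.8 at dpc16. In zone 3 the stages did not overlap, with dpc8 lowest and dpc16 highest, an order without overlap that 0.278% of all genes showed. In the fit of zone 3, 1.32% of all genes were called between dpc16 and NP, 1.37% between dpc16 and dpc8 and 0.0154% between dpc8 and NP, and Sgk1 was not among them. In every zone replicate 3 was the lowest dpc16 library, and in zone 1 it is not a Y library. The highest dpc8 values, 91.3 in zone 1 and 62.9 in zone 2, came from the 2 Y libraries of dpc8, and the other 7 dpc8 libraries held 9.83 to 30.7 FPKM. These 2 libraries also had the highest means of 13 immediate early stress genes, 4.42 and 4.46 on the log2(FPKM + 1) scale against 2.04 to 3.97 in the other 25, and the part of this in the Sgk1 values was not tested.

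From dpc8 to dpc16 Sgk1 rose by 1.44 ± 0.39 averaged over zones, a fold of 2.71 (adjusted p = 0.0197), in a comparison that called 11.1% of all genes and 5.37% as higher. Without the Y libraries the difference was 2.29 (adjusted p = 4.66e-05), in a fit that called 18.7% of all genes. In that set 6 of 7 dpc16 libraries lay above every dpc8 library, and the share of all genes that did so was not counted. The call was lost in 3 of the 12 other settings: when only the groups compared were fitted (adjusted p = 0.0621), when libraries were rescaled to a common sum (1.01, adjusted p = 0.0525), and with the hepatocyte marker covariate (1.13, adjusted p = 0.0749). Omitting libraries one at a time kept the call in 16 of 18 fits; it was lost without dpc8 zone 2 replicate 3 (1.27, adjusted p = 0.0504) and without dpc16 zone 1 replicate 1 (1.25, adjusted p = 0.0512). With the random block over zones the adjusted p was 0.0467. From NP to dpc16 the difference was 1.10 ± 0.39, with a 95% interval from 0.28 to 1.91, and did not pass (adjusted p = 0.0763). It did not pass with the random block over zones either (adjusted p = 0.145). It passed with the replicate number as a fixed block (1.10, adjusted p = 0.0214), which ties the numbers across stages where same-numbered libraries of a zone correlated in only 3 or 4 of 9 pairs. It also passed without the Y libraries (1.53, adjusted p = 0.00178) and when any one of the 3 dpc16 replicate 3 libraries was left out (1.28 to 1.33), and in all it passed in 4 of the 12 other settings. From NP to dpc8 the difference was -0.34, with an interval from -1.16 to 0.48 (adjusted p = 1).

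The Sgk1 difference between dpc16 and NP was 0.44 in zone 1 (adjusted p = 0.857), 1.19 in zone 2 (0.402) and 1.66 in zone 3 (0.312), each with an SE of 0.68. Without the Y libraries zones 2 and 3 passed, at 1.85 (adjusted p = 0.0437) and 2.15 (adjusted p = 0.0396), in fits that called 4.45% and 3.61% of all genes. In both zones this left fewer than 3 libraries in at least 1 of the groups compared. The difference between zones 1 and 3 in this change was -1.22, with an interval from -3.22 to 0.77 (adjusted p = 0.993), so a zonal change was not detectable with 3 libraries a group. In NP, the 3 libraries of zone 1 and the 3 of zone 2 lay above the 3 of zone 3, with log2 differences of 0.54 and 0.65 (adjusted p = 0.971 and 0.987), in comparisons that called 1.34% and 0.401% of all genes and in which 6.63% and 6.17% lay above zone 3 without overlap.

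**Figure D3:**
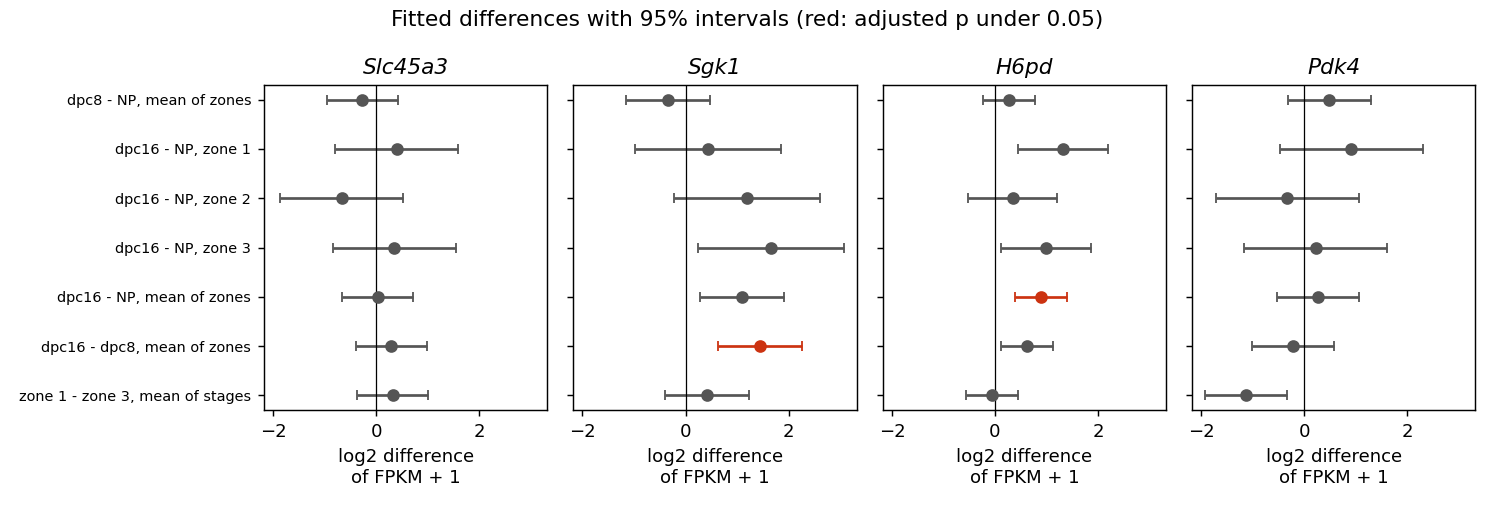
Fitted log2 differences of FPKM + 1 with 95% intervals for Slc45a3, Sgk1, H6pd and Pdk4 in 7 comparisons, with red for an adjusted p under 0.05. The 2 red points are H6pd from NP to dpc16 (0.89) and Sgk1 from dpc8 to dpc16 (1.44), both averaged over the 3 zones.

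Of the Sgk1 relatives, Sgk2 stood at a median of 26.2 FPKM, against 30.7 for Sgk1, and Sgk3 at 6.34. The dpc16 difference from NP was 0.78 ± 0.34 for Sgk2 (adjusted p = 0.157), and 1.15 without the Y libraries (adjusted p = 0.0031). For Sgk3 it was -0.017 (adjusted p = 0.976). Of 23 genes of the SGK and AKT kinase pathway, 1 was called between dpc16 and NP, against 11.8% of all genes, with a list median of 0.11. It was Ndrg2, a relative of the SGK1 substrate NDRG1, which fell by 1.22 on the log2 scale (adjusted p = 0.000128), from a median of 1215 FPKM in NP to 534 at dpc16. For Ndrg2, 8 of 9 dpc16 libraries lay below every NP library, and the share of all genes that did so was not counted. Without the Y libraries 6 genes of this list and 16.6% of all genes were called.

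Of 21 genes of the glucocorticoid response, 4 rose and 1 fell at dpc16, where 5.65% of all genes rose and 6.15% fell, with a list median of 0.22. The metallothioneins Mt2 and Mt1, metal-binding proteins, rose by 2.84 and 2.53 (adjusted p = 0.000126 and 0.000205), and all 9 dpc16 libraries lay above all NP libraries for Mt2, as for 0.818% of all genes. Igfbp1, a secreted protein that binds insulin-like growth factors, rose by 2.05 (adjusted p = 0.0241). Fkbp5, a co-chaperone of the glucocorticoid receptor, rose by 1.36 (adjusted p = 0.0221; 0.0521 after rescaling to a common sum). Nr3c1, the glucocorticoid receptor itself, fell by 0.54 (adjusted p = 0.0131; 0.0755 with the random block). Tsc22d3 and Per1, which glucocorticoids also induce, were at -0.48 and 0.71 (adjusted p = 0.28 and 0.561).

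Pdk4 showed no change with stage that passed the test. In zone 1 its FPKM was 6.34, 4.82 and 0.518 in NP, 9.58, 3.85 and 1.98 at dpc8, and 12.7, 5.13 and 4.17 at dpc16. In zone 2 it was 7.60, 8.55 and 9.10 in NP, 11.3, 17.4 and 3.66 at dpc8, and 10.9, 5.02 and 4.82 at dpc16. In zone 3 it was 10.2, 19.1 and 2.40 in NP, 19.6, 20.4 and 10.9 at dpc8, and 18.3, 10.1 and 4.72 at dpc16. The stages overlapped in every zone. In every group but NP zone 2 the replicate 3 library held the lowest Pdk4 value. Averaged over zones, the dpc16 difference from NP was 0.27 with a 95% interval from -0.53 to 1.07 (adjusted p = 0.753). Changes within this interval were compatible with the data, and it does not mark which changes would have been called. The dpc8 difference from NP was 0.49, with an interval from -0.32 to 1.29 (adjusted p = 0.991).

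Pdk4 was lower in the zone 1 library than in the zone 3 library in each of the 9 combinations of stage and replicate number, as were 3.06% of all genes, a difference that did not pass the test in the fit of all libraries. At dpc8 all 3 zone 1 libraries lay below all 3 of zone 3, as in 10.5% of all genes, while 1.61% were called. Over 9 libraries the median was 4.82 FPKM in zone 1, 8.55 in zone 2 and 10.9 in zone 3. The difference of zone 1 from zone 3 averaged over stages was -1.13 ± 0.39, with an interval from -1.93 to -0.33 (adjusted p = 0.105), in a comparison that called 5.59% of all genes. With the replicate number as a fixed block, which ties the numbers across stages as described for Sgk1, the adjusted p was 0.00886. With stage and replicate number as a random block, a setting added for zones after the data had been seen, it was 0.0313, with 7.87% of all genes called, although same-numbered zones correlated in only 4 of 9 pairs in NP and 5 of 9 at dpc8. The difference without the Y libraries was -1.40 (adjusted p = 0.0256), with 8.18% of all genes called. Omitting libraries one at a time gave a call in 1 of 18 fits, the one without the third NP library of zone 3 (-1.37, adjusted p = 0.0318). The zone differences of Slc45a3, Sgk1 and H6pd were 0.32, 0.42 and -0.059 (adjusted p = 0.753, 0.712 and 0.948).

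Pdk4 was not the main pyruvate dehydrogenase kinase transcript at any stage. The median over all libraries was 52.2 FPKM for Pdk1, 49.1 for Pdk2, 8.55 for Pdk4 and 0.693 for Pdk3, and Pdk4 lay below Pdk1 and Pdk2 in 27 of 27 libraries. Pdk3 followed the Y libraries, with 2.70 to 15.5 FPKM in these 6 and at most 2.23 in the others. At dpc16 Pdk1 fell by 1.09 from NP (adjusted p = 0.0121), from a median of 55.9 to 28.1 FPKM, and Pdk2 fell by 0.76 (adjusted p = 0.00328), from 58.9 to 33.7 FPKM. In 6 and 7 of 9 dpc16 libraries they lay below every NP library, and both stayed lower and past the threshold under each of 5 other settings. Of 17 genes of the pyruvate dehydrogenase system these 2 fell and Ldha, the lactate dehydrogenase subunit that interconverts pyruvate and lactate, rose by 1.32 (adjusted p = 0.00243), with a list median of -0.048, in a comparison that called 11.8% of all genes. Between zones 1 and 3 none of the 17 was called, a count near the 5.59% of all genes. The list held 9 calls after rescaling to a common sum, which called 25.1% of all genes, and 5 without the Y libraries, which called 16.6%.

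**Figure D4:**
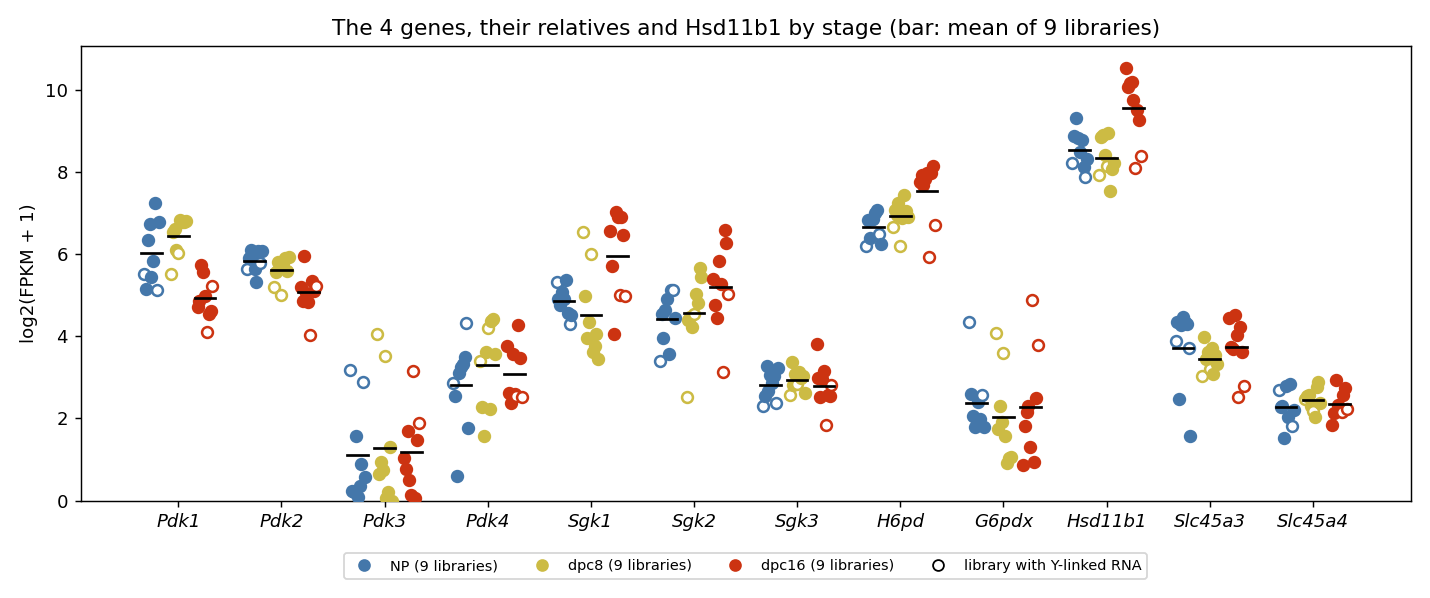
log2(FPKM + 1) of the 4 genes, their relatives and Hsd11b1 in each library by stage, with a bar at the mean of 9 libraries and open symbols for the Y libraries. Pdk1, Pdk2 and Hsd11b1 shift at dpc16, while Pdk3 and G6pdx are highest in the open symbols.

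Of 30 PPARA and FOXO fasting targets, the class to which Pdk4 belongs, 8 rose and 1 fell at dpc16, with a list median of 0.59 against -0.010 over all genes, of which 5.65% rose and 6.15% fell. Without the Y libraries 19 of the 30 were called, while the calls over all genes went from 1529 to 2148 of 12952. With the hepatocyte covariate 8 rose and 1 fell, with a list median of 0.32 and 28.7% of all genes called, and after rescaling 7 rose and 2 fell, with a list median of 0.20 against -0.33 over all genes. The mean log2 level of 7 hepatocyte markers was 10.99 in NP and 11.40 at dpc16, and that of 10 Kupffer cell and macrophage markers was 4.18 and 3.49. The summed level of the latter was 142 to 545 FPKM in NP and 47.7 to 285 at dpc16 with none at 0, and the part of these markers in the list's values was not tested beyond the covariate. Cyp4a31, a fatty acid hydroxylase of a family with close copies whose reads may be shared, rose by 3.92 (adjusted p = 9.21e-07), from 4.17 to 24.1 FPKM in NP to 27.4 to 230 at dpc16. Ucp2, a mitochondrial carrier, rose by 2.09 (adjusted p = 3.64e-07), and Plin2, a coat protein of lipid droplets, by 1.60 (adjusted p = 0.000143). Cyp4a31 and Ucp2 passed in each zone on its own, where 1.37%, 2.66% and 1.32% of all genes were called in zones 1, 2 and 3. All their dpc16 libraries lay above all NP libraries, as for 0.818% of all genes. Fgf21, a liver hormone of fasting, rose by 2.59 (adjusted p = 0.00719), though 3 of 9 dpc16 libraries stayed within the NP range. Ppargc1a, a coactivator of gluconeogenic genes, fell by 0.88 (adjusted p = 0.0404; 0.136 with the random block). The factors Ppara, Foxo1 and Foxo3 were at 0.17, -0.020 and -0.20 (adjusted p = 0.732, 0.977 and 0.698).

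Slc45a3 showed no difference that passed in any comparison. In zone 1 its FPKM was 13.7, 19.3 and 4.55 in NP, 7.25, 14.7 and 9.84 at dpc8, and 20.7, 12.4 and 12.01 at dpc16. In zone 2 it was 18.4, 21.3 and 19.4 in NP, 11.3, 8.21 and 12.2 at dpc8, and 21.9, 15.5 and 4.78 at dpc16. In zone 3 it was 18.6, 12.1 and 1.98 in NP, 7.43, 10.6 and 8.97 at dpc8, and 17.8, 11.2 and 5.95 at dpc16. In zone 2 the 3 dpc8 libraries lay below the 3 NP libraries, a log2 difference of -0.85 ± 0.57 (adjusted p = 0.971), where 0.00772% of all genes were called and 5.76% lay lower at dpc8 without overlap. The lowest values in NP were the replicate 3 libraries of zones 1 and 3, which are not Y libraries. Averaged over zones the dpc16 difference from NP was 0.026 with a 95% interval from -0.66 to 0.71 (adjusted p = 0.978), and its sign changed with the scaling, to -0.35 after rescaling to a common sum. That of dpc8 from NP was -0.27, with an interval from -0.96 to 0.42 (adjusted p = 1).

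Slc45a3 was the main transcript of its family, with a median of 12.1 FPKM against 3.97 for Slc45a4, above which it lay in 26 of 27 libraries. Slc45a2 was at most 0.229 FPKM, and Slc45a1 was listed at 0 in every library. Of 15 tested sugar transporters 1 rose and 1 fell at dpc16, close to the 11.8% of all genes called, with a list median of -0.18. Slc37a1, an antiporter of glucose 6-phosphate and phosphate in the ER membrane, rose by 3.12 ± 0.47 (adjusted p = 9.73e-05), from 0.907 to 10.2 FPKM in NP to 11.3 to 93.7 at dpc16, without overlap. In 0.818% of all genes every dpc16 library lay above every NP library. Slc2a4, the insulin-responsive glucose transporter of muscle and fat, fell by 0.74 (adjusted p = 0.0232), but its level was at most 2.34 FPKM. No dpc16 library lay below every NP library for Slc2a4. With the random block over zones no sugar transporter was called lower, so the Slc2a4 call was lost. Slc2a2, the main glucose transporter of hepatocytes, was at -0.60 (adjusted p = 0.13).

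**Figure D5:**
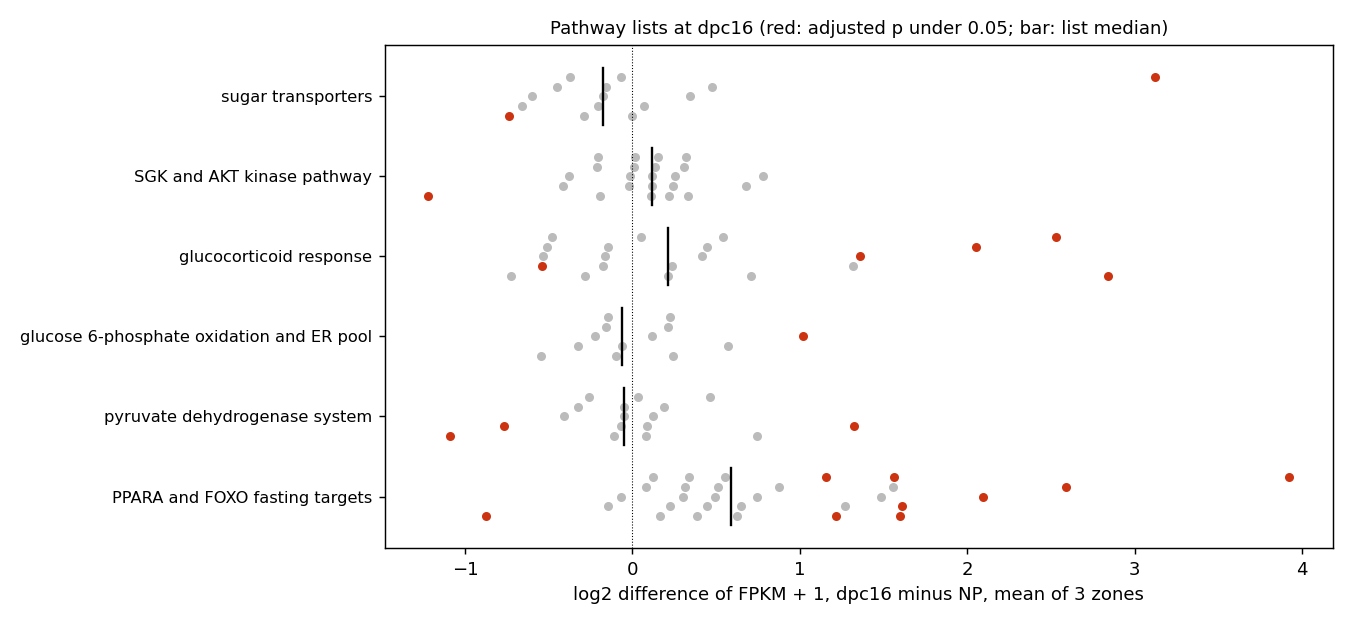
log2 difference between dpc16 and NP, averaged over 3 zones, for each tested gene of 6 pathway lists (1 dot a gene, red for an adjusted p under 0.05) with a bar at the list median. The median of the PPARA and FOXO fasting targets is 0.59 and those of the other 5 lists lie between -0.18 and 0.22.

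The order of the 9 groups was led by dpc16 zone 1 for H6pd, dpc16 zone 2 for Sgk1, dpc8 zone 3 for Pdk4 and NP zone 2 for Slc45a3. From the highest to the lowest group mean the log2 span was 1.32, 2.56, 2.11 and 1.17 in that order. None of the 8 steps between neighbours in any of the 4 orders exceeded the gene's own standard deviation between replicates, which was 0.54, 0.90, 0.88 and 0.75. In all, 2 of 120 tests of the 4 genes passed the threshold and 12 had an unadjusted p under 0.05, over 30 comparisons of which many share libraries. Over all genes 1.6% of tests passed and 8.28% had an unadjusted p under 0.05, so these counts were near the background.

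Pearson correlations of their log2 values over the 27 libraries ranged from 0.19 for Sgk1 and Pdk4 to 0.52 for Slc45a3 and H6pd. The genes most like H6pd were Agpat3, an enzyme of phospholipid synthesis, at 0.94, Creb3l3, a hepatic transcription factor anchored in the ER, at 0.93, and Mttp, which loads lipid onto apolipoprotein B, at 0.92. Those most like Sgk1 were Desi2 at 0.87, Pde12 at 0.84 and Skil, an inhibitor of SMAD signalling, at 0.79. Those most like Pdk4 were Acot1, an acyl-CoA thioesterase and PPARA target with close copies, at 0.77, Ccdc130 at 0.66 and Cyp3a41a, of a family of close copies, at 0.64. Those most like Slc45a3 were Sco2 at 0.85, Fam20a at 0.79 and Tymp at 0.77, where Sco2 and Tymp are neighbouring genes.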

How the data were processed

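Laser-microdissected liver zones were sequenced as 27 libraries after ribosomal RNA depletion. The authors trimmed reads with cutadapt, aligned them to mm10 with HISAT2 2.1.0 and deposited FPKM values computed with Cuffdiff of Cufflinks 2.2.1. No counts were used, and depth was estimated from the steps between low FPKM values, with 90.0% to 95.5% of 600 values per library on a step within a tolerance of 0.06. Samples were grouped by stage and zone from the labels, and 4626 of 21823 genes were at 0 throughout. Genes with at least 1 FPKM in at least 3 libraries (12952) were fitted on log2(FPKM + 1) with limma 3.58.1 in R 4.3.3, with 9 group means, a mean-variance trend, robust variances and Benjamini-Hochberg adjustment over all genes within a comparison at 0.05, two-sided. Fold changes on this scale understate those of low genes.

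The study picked the 4 genes on other mice, but they were taken up here, and the gene lists drawn up, with earlier results of these data known. Named genes were the 4 genes, their closest relatives, up to 4 genes per direction in each pathway list with the largest called difference between dpc16 and NP, and the 3 genes most like each. Tsc22d3, Per1, Ppara, Foxo1, Foxo3 and Slc2a2 were added after their values were seen. No share over all genes was counted for separations of only part of the libraries of a stage. The study describes the libraries of a group as independent experiments, but the labels do not tie them to single mice, so p-values measure the spread between libraries, which may be technical in part. Same-numbered libraries of different zones correlated at 0.26 to 0.86 in 9 of 9 pairs at dpc16, but in 4 of 9 in NP and 5 of 9 at dpc8, and in 3 or 4 of 9 between stages within a zone. Alternatives were another pseudocount (0.1), no filter, quantile normalization, rescaling to a common sum (TPM), array weights, fits of only the groups compared, replicate blocks, a connective tissue covariate, the Y libraries left out and each library left out. A hepatocyte covariate, the omission of all replicate 3 libraries and the random block for zone differences were chosen only with the data in view.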

Additional observations from a re-analysis of the deposited data

How the results depend on the processing

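Values here are log2 differences unless a count is named. The call of H6pd from NP to dpc16 held in 18 of 18 fits that left out a library (0.76 to 1.11) but not with the random block over zones (0.89, adjusted p = 0.0595). The fixed replicate block gained the calls of Sgk1 from NP to dpc16 (1.10) and of Pdk4 between zones 1 and 3 (-1.13) and changed no other call. Array weights gained calls from NP to dpc16 for H6pd in zones 1 to 3 (1.21, 0.97, 1.38) and for Sgk1 in zone 2 (1.83), zone 3 (2.08) and the mean of zones (1.56), for H6pd from dpc8 to dpc16 (0.88) and for Pdk4 between zones (-1.28). Leaving out the Y libraries, which left fewer than 3 libraries in some groups, gained the same ones (1.182, 1.001, 1.38, 1.85, 2.15, 1.53, 0.85, -1.40). The connective tissue covariate (-1.23) and the random block (-1.13) gained Pdk4 between zones. With all replicate 3 libraries left out, Sgk1 from NP to dpc16 (1.75), H6pd from dpc8 to dpc16 (0.99) and Pdk4 between zones (-1.14) passed. The hepatocyte covariate gained H6pd from NP to dpc8 (0.61). Sgk1 from dpc8 to dpc16 was lost with the hepatocyte covariate (1.13), with only the groups compared (1.44) and after rescaling (1.01).

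No value that turned its sign had passed the test in the main fit. For Slc45a3 from NP to dpc16, the mean of zones turned under the connective covariate (-0.037), the hepatocyte covariate (-0.23), omission of replicate 3 (-0.066), quantile normalization (-0.016) and rescaling (-0.35), zone 1 under the hepatocyte covariate (-0.14), omission of replicate 3 (-0.018) and rescaling (-0.17), and zone 3 without replicate 3 (-0.082). From dpc8 to dpc16 it turned under the hepatocyte covariate (-0.21) and rescaling (-0.13), and between zones 1 and 3 at dpc16 under the hepatocyte covariate (-0.017). From NP to dpc8, zone 1 turned under array weights (0.051), the hepatocyte covariate (0.26), rescaling (0.012) and without the Y libraries (0.30), and zone 3 under the connective covariate (-0.024) and without replicate 3 (-0.70). Sgk1 from NP to dpc8 turned in zone 1 under array weights (-0.19) and without the Y libraries (-0.37), and without replicate 3 in zone 2 (0.18) and the mean (0.097); its zone 1 change to dpc16 turned on rescaling (-0.17), and its zone difference without the Y libraries (-0.075). H6pd from NP to dpc8 in zone 2 turned under array weights (0.062), both covariates (0.17 and 0.37) and without the Y libraries (0.15). H6pd from dpc8 to dpc16 turned under the hepatocyte covariate (-0.085), its zone difference under the connective covariate (0.096), and that at dpc16 under array weights (-0.14), the hepatocyte covariate (-0.42), omission of replicate 3 (-0.21), rescaling (-0.14) and omission of the Y libraries (-0.26). Pdk4 from dpc8 to dpc16 turned under array weights (0.058) and without the Y libraries (0.30), from NP to dpc8 in zone 2 under array weights (-0.026), the connective covariate (-0.088) and without the Y libraries (-0.31), and from NP to dpc16 in zone 3 without replicate 3 (-0.038) and on rescaling (-0.022), with the mean at -0.062 on rescaling.

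Genes called from NP to dpc16 went, on rescaling, to 5 sugar transporters, 3 of the kinase pathway, 8 of the glucocorticoid response, 4 of the ER pool and 9 of the pyruvate dehydrogenase system, from 2, 1, 5, 1 and 3, and without the Y libraries to 5, 6, 7, 2 and 5, with 19 fasting targets from 9. Calls over all genes rose in the same fits from 1529 to 3249 and 2148. With 1 library left out at a time, the differences that changed sign or call ranged as follows. Slc45a3 ranged for NP to dpc8, zone 1 from -0.62 to 0.31, for NP to dpc16, zone 1 from -0.15 to 0.79, for NP to dpc16, mean of 3 zones from -0.24 to 0.22, for NP to dpc16, zone 3 from -0.46 to 0.90, for NP to dpc8, zone 3 from -0.69 to 0.67. Pdk4 ranged for NP to dpc8, zone 1 from -0.29 to 0.85, for NP to dpc16, zone 3 from -0.49 to 0.79, for zones 1 and 3, mean of 3 stages from -1.37 to -0.89, for NP to dpc8, zone 2 from -0.31 to 0.68. H6pd ranged for zones 1 and 3, mean of 3 stages from -0.21 to 0.030, for NP to dpc8, zone 2 from -0.36 to 0.15, for NP to dpc16, zone 2 from -0.025 to 1.001, for dpc8 to dpc16, mean of 3 zones from 0.50 to 0.84, for zones 1 and 3, dpc16 from -0.26 to 0.45. Sgk1 ranged for NP to dpc8, zone 1 from -0.54 to 0.75, for dpc8 to dpc16, mean of 3 zones from 1.24 to 1.67, for NP to dpc8, zone 2 from -1.13 to 0.057, for NP to dpc16, zone 1 from -0.12 to 1.13, for NP to dpc16, mean of 3 zones from 0.91 to 1.33, for zones 1 and 3, dpc16 from -1.25 to 0.012. H6pd from dpc8 to dpc16 gained its call without dpc16 zone 2 replicate 3 (0.84) or zone 3 replicate 3 (0.77), both Y libraries. The causes were not tested. Depth limits Pdk4 and Slc45a3 most, with as few as 36 and 125 reads in a library.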
